A study of Mus musculus with 18 samples.

Results

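The regions described here are 500-bp bins of the mouse genome that carried almost no methylated DNA in the T cells of young mice and a clear signal in the T cells of both older groups. They were chosen from the MBD-seq table by their T-cell values: at most 5 in 2-month (2-m) T cells and at least 30 in both 20-m and 28-m T cells, on the 19 autosomes. The rule found 1001 of 4783931 autosomal bins (0.0209%; the whole table holds 5128560 bins), or 0.0467% of the 2145023 autosomal bins that were at 5 or less at 2 m. MBD-seq captures sonicated DNA with the methyl-CpG-binding domain of an MBD protein and sequences it, so that a bin's read count rises with the number of methylated CpGs in it. Each age had genomic DNA of 3 female C57BL/6J mice, untreated, pooled before capture, from splenic T cells (isolated with magnetic beads by removal of the other cell types) and from hind-limb skeletal muscle, at 2, 20 and 28 months. The table has 1 column per tissue and age, and 9 muscle RNA-seq libraries, 3 per age, came from the same groups of mice. A comparison of ages in the MBD-seq columns therefore has no replicates and no test, and the T-cell values that chose the bins are given as a description.

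CpG islands are stretches dense in CpG dinucleotides that lie at many gene starts and are usually free of methylation, also where the gene is silent. Genes of embryonic development often keep unmethylated islands under Polycomb repression in adult tissues, and such islands are known from other work to gain methylation with age in several tissues. Outside islands most CpGs of a mammalian genome are methylated, and short unmethylated stretches there commonly mark enhancers and promoters that the cell type in question uses. The gaining bins fell into these classes of sequence: 573 had at least 250 of their 500 bases in a CpG island (at least 200 bp, GC content of at least 50%, observed-to-expected CpG ratio of at least 0.6, computed from the genome sequence) and are called island bins, and the other 428 are called non-island bins. Island calling used sequence only, and the rule did not.

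The T-cell columns held 188758989 to 200456498 reads on bins and the muscle columns 135254786 to 141889499, and every value was a whole number of reads times a constant, from 0.637 to 1.32 per read. The 28-m muscle column stood apart from the others: 13.8% of its autosomal bins were at 5 or less, against 40.3% at 2 m and 34.9% at 20 m, and 11.6% were at 30 or more, against 19.2% and 18.5%. The T-cell label was checked at the starts of T-cell genes, which T cells use and keep poor in methylation. Over 15 such genes (among them Cd3e, Lck and Tcf7) the median value of the bins within 1 kb of a start was 8.53 in 2-m T cells, 19.7 at 20 m and 28.0 at 28 m, beside 29.1, 28.0 and 20.9 in muscle. The T-cell value was below the muscle value at 14 of the 15 genes at 2 m, 8 at 20 m and 4 at 28 m, so the T-cell pools were below muscle at most of these genes at 2 m and at few of them at 28 m. At Lck, the kinase next to the T-cell receptor, the T-cell values were 5.48, 19.7 and 28.3, and at Cd247, a signalling chain of that receptor, they were 13.2, 65.95 and 69.8. At the starts of 9 B-cell genes the medians in T cells were 10.8, 10.95 and 7.67 and in muscle 15.3, 14.3 and 15.7. The medians in T cells were also higher in both older pools at 9 muscle genes (17.1, 22.1 and 27.2) and 11 myeloid genes (18.9, 26.8 and 21.1), and at 20 m but not at 28 m at 5 erythroid genes (17.1, 22.1 and 16.9). Bins without reads made up 21.3%, 24.8% and 30.3% of the whole table in T cells at 2, 20 and 28 m. Each age had 1 T-cell capture of pooled DNA. A larger share of other cells in the older preparations, a change inside T cells and a difference between captures therefore cannot be told apart. The part of each in the gaining bins was not tested.

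Stretches of the gaining bins show what the classes look like at the level of bases. They are given from mm10 (GRCm38), plus strand, as the 100-base window richest in CpG without any UTR base, with each CG in capitals. The first 5 come from island bins, from runs of 4 or 3 adjacent gaining bins (Pcdh7, Fat3, Gpc6) and from bins among the highest at 20 m and 28 m (Pcdh10, Nrg1). The Plcb1 bin ranked between Pcdh10 and Nrg1 but had no 100-base window free of UTR bases. The other 5 are the gaining bins whose muscle value at 28 m was furthest below that at 2 m on the log2 scale, and 4 of them are non-island bins.
Pcdh7, chr5:57719657-57719756, coding exon: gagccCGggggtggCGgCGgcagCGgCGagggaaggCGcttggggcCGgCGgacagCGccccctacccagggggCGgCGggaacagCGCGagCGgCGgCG
Fat3, chr9:16500832-16500931, intron: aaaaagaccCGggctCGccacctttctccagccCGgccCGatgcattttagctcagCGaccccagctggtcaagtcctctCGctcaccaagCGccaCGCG
Gpc6, chr14:116926471-116926570, intron: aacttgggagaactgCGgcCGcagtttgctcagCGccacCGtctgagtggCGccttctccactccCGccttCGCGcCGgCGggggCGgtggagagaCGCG
Pcdh10, chr3:45380096-45380195, coding exon: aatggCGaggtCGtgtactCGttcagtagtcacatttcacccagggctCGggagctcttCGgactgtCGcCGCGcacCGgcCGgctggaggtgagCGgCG
Nrg1, chr8:32009001-32009100, partly coding exon: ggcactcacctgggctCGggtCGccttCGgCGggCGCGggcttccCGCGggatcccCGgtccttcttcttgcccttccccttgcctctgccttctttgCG
Scn8a, chr15:100905741-100905840, intron: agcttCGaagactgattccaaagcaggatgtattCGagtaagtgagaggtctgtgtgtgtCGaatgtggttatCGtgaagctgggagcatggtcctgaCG
Rcor2, chr19:7274501-7274600, coding exon: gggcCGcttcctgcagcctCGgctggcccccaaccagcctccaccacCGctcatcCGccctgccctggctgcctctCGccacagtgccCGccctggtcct
Lmx1a, chr1:167802688-167802787, intron, in an island: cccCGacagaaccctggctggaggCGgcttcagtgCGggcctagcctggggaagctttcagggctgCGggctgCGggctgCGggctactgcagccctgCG
Stn1, chr19:47510901-47511000, intron: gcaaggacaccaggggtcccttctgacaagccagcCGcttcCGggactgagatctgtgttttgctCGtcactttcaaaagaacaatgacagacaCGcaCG
Runx1, chr16:92822113-92822212, intron: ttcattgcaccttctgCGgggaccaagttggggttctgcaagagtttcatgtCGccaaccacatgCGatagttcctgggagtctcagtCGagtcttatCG
The Pcdh7 window held 16 CpGs in 100 bases and those of Gpc6 and Pcdh10 held 13 and 12. The island windows of Nrg1, Fat3 and Lmx1a held 10, 9 and 7, and the windows of the 4 non-island bins held 5 or 6.

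The values of the 1001 bins in 2-m T cells ran from 0 to 4.06, that is from 0 to 4 reads. In 20-m T cells they ran from 30.4 to 151 with a median of 42.6, and in 28-m T cells from 30.4 to 163 with a median of 54.2. The island bins had median T-cell values of 2.03, 43.8 and 70.1 and the non-island bins 3.05, 40.2 and 42.3. The 28-m value was above the 20-m value in 480 of the 573 island bins (83.8%) and in 231 of the 428 non-island bins (54.0%); the share was 65.7% over all island bins and 42.1% over all autosomal bins. The muscle columns, which the rule did not use, separated the classes further. The median muscle values of island bins were 0.910, 0.842 and 4.46 at 2, 20 and 28 m, and those of non-island bins were 24.6, 22.3 and 19.1. Thus 185 non-island bins (43.2%) but 20 island bins (3.49%) had a value of 30 or more in 2-m muscle. The shares were 0.193% of the other low non-island bins, 1.14% of the other low island bins, 61.1% of all island bins and 19.2% of all autosomal bins. Many bins lay close to the limits: 257 bins had 4 reads in 2-m T cells, and 244 bins with 5 reads (5.08) met the other limits but stayed outside. At the lower limit, 67 bins had 25 reads (30.4) in 20-m T cells and 68 bins with 24 reads (29.2) were left out; the figures at 28 m were 29 bins with 23 reads (30.4) and 48 bins with 22 reads (29.1).

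**Figure D1:**
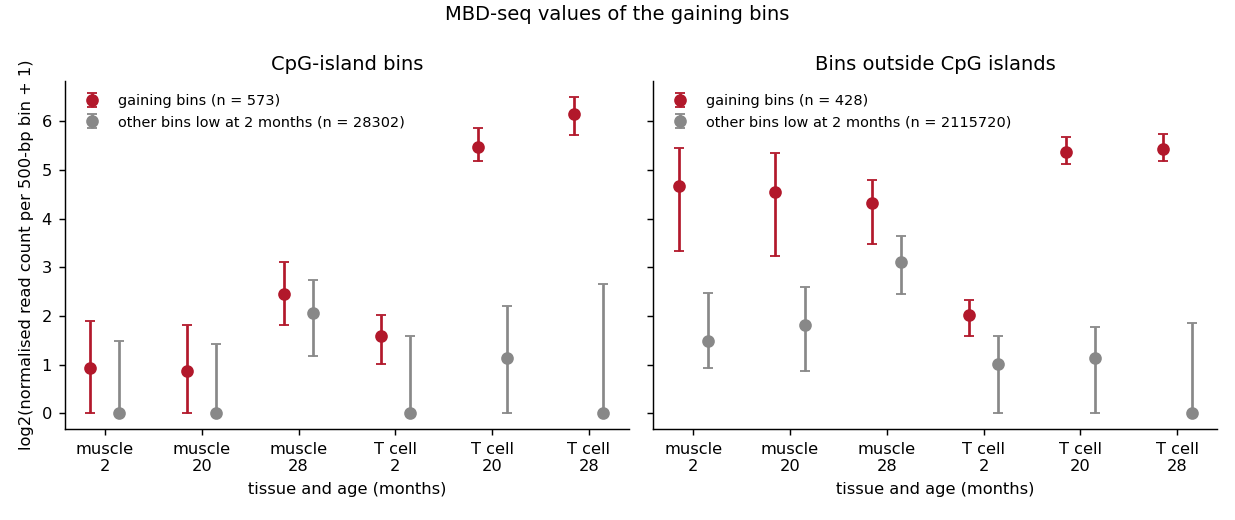
Median and quartiles of log2(normalised read count per 500-bp bin + 1) in the 6 MBD-seq columns, for gaining bins (red) and other autosomal bins at 5 or less in 2-m T cells (grey), in CpG islands (left; 573 and 28302 bins) and outside them (right; 428 and 2115720 bins). Island gaining bins had median muscle values of 0.910, 0.842 and 4.46, and non-island gaining bins of 24.6, 22.3 and 19.1.

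Islands were far more frequent among the gaining bins than in the genome. They made up 57.2% of gaining bins (95% Wilson interval 54.2 to 60.3), 2.26% of all autosomal bins and 1.32% of the other bins that were low in 2-m T cells. The median number of CpGs in a gaining bin was 20, with 33 in island and 9 in non-island bins, and ranged from 1 to 80. Of the bins low in 2-m T cells, 0.000838% gained where the bin held 0 to 4 CpGs, 0.277% at 5 to 9 CpGs and 1.66% at 10 to 19, and the share then stayed at 2.14%, 2.16% and 2.12% in bins with 20 to 29, 30 to 39 and 40 or more. Capture depends on the number of methylated CpGs, so the limit of 30 is harder to reach in bins with few CpGs, and these shares carry that limit. Of the 28875 low island bins 573 gained (1.98%), as against 428 of 2116148 low bins outside islands (0.0202%). The T-cell values of islands as a whole were also higher in the older pools. The medians over all island bins were 71.1, 86.4 and 100 at 2, 20 and 28 m, and over all autosomal bins 6.09, 4.87 and 5.29. The part of this general rise in the gaining islands was not tested. Repeats masked in the genome sequence covered more than 50% of the bases in 17 gaining bins (1.70%) and in 23.9% of all autosomal bins.

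**Figure D2:**
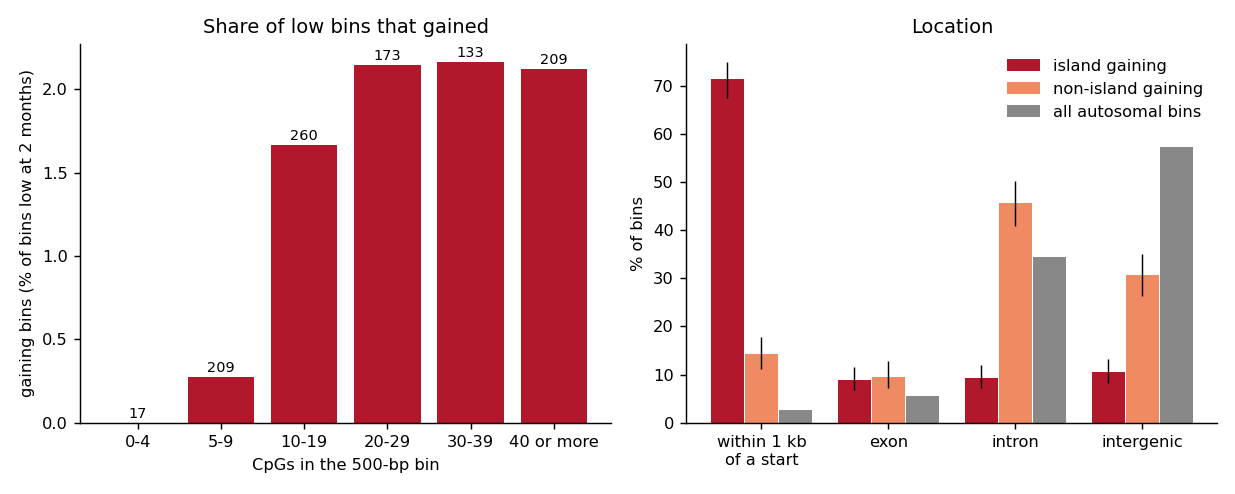
Left, percentage of the autosomal bins low in 2-m T cells that gained, by number of CpGs in the bin, with the number of gaining bins above each bar. Right, percentage of island gaining, non-island gaining and all autosomal bins by location, with 95% Wilson intervals; 71.4% of island gaining bins and 14.3% of non-island gaining bins lay within 1 kb of a transcription start.

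Gaining bins lay near gene starts. Within 1 kb of the start of a curated RefSeq transcript were 470 bins (47.0%, interval 43.9 to 50.1), as against 2.64% of all autosomal bins and 2.82% of the other low bins. Of the rest, 92 overlapped an exon (9.19%), 248 lay in introns (24.8%) and 191 were intergenic (19.1%). The classes differed in this as well. Island bins lay within 1 kb of a start in 71.4% of cases, with a median distance of 316 bp, and the share among the 28302 other low island bins was 79.6%. More of the gaining islands were in exons (8.90% against 3.29%) and introns (9.25% against 5.69%) than of the other low island bins. Non-island bins were mainly in introns (45.6%) or intergenic (30.6%), 14.3% were within 1 kb of a start, and the median distance to a start was 11185 bp. Every autosome carried gaining bins, from 49 of 312268 bins on chromosome 3 to 53 of 183106 on chromosome 17, the lowest and the highest rate, and between 0.862% (chromosome 19) and 3.39% (chromosome 18) of the low island bins of a chromosome gained.

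Neighbouring gaining bins formed 111 runs, of which 89 had 2 bins, 20 had 3 and 2 had 4, so the longest covered 2000 bp. The runs held 246 bins (24.6%), with 198 of the island bins (34.6%) and 48 of the non-island bins (11.2%). Of the 755 single bins, 390 (51.7%) had a neighbour at 30 or more in both older T-cell pools that was above 5 in 2-m T cells. Around island bins the T-cell signal spread over some kilobases. The mean value at the centre was 1.99 at 2 m, 49.0 at 20 m and 73.0 at 28 m, and at 1 kb to the right it was 13.5, 27.3 and 39.98. At 5 kb the means were 16.5, 18.0 and 20.2. In muscle the same islands appeared as a dip, with means of 4.14, 3.75 and 5.90 at the centre and 15.1, 15.2 and 14.2 at 2 kb. Non-island bins were a narrow gap in methylated surroundings in 2-m T cells: the mean was 2.57 at the centre, 11.7 at 0.5 kb and 22.2 at 1 kb. At 20 m and 28 m the gap was absent, with 44.2 and 46.2 at the centre, and it was absent from muscle at every age, with 28.9, 25.8 and 19.7 at the centre. The centre values of the T-cell columns follow from the rule, as do those of the neighbouring bins for the 246 bins in runs, which enter these means; the muscle values do not.

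**Figure D3:**
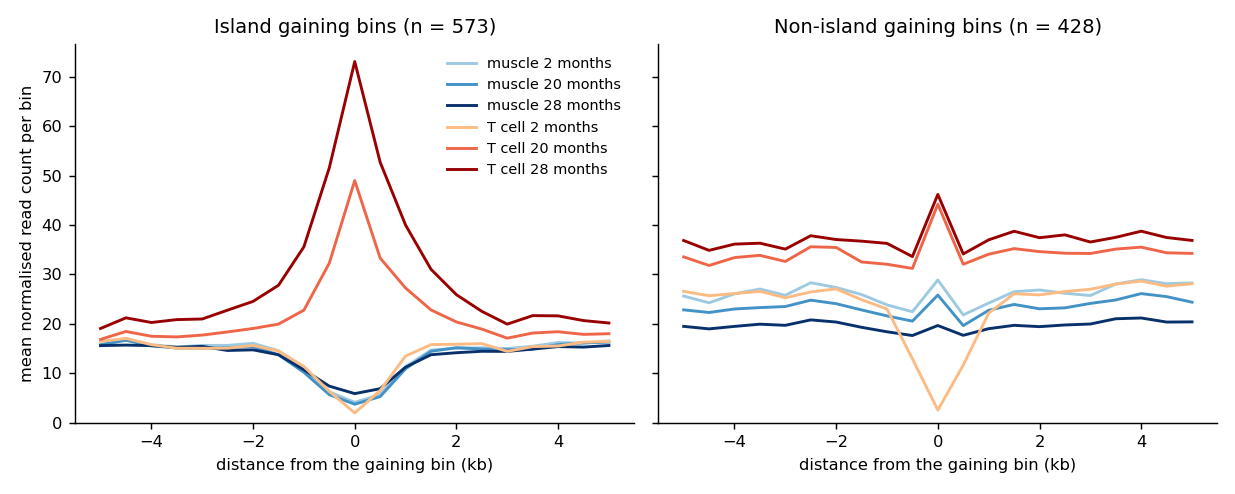
Mean normalised read count per 500-bp bin against the distance (kb) from the gaining bin, for 573 island bins (left) and 428 non-island bins (right), 1 line per tissue and age. In 2-m T cells the non-island bins were a gap of about 1 kb on either side that muscle did not have, and the signal of the older T-cell pools over islands fell from the centre outwards.

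Described here are both runs of 4 bins and, of the 20 runs of 3, the 8 with the highest summed T-cell value. Both runs of 4 bins were at cadherin-family genes. The run at Pcdh7 (chr5:57718001-57720000; 168 CpGs), a protocadherin of cell-cell contacts, covered a start of the gene and part of its coding sequence. Its 4 bins together had 6 reads in 2-m T cells, 280 at 20 m and 281 at 28 m, and mean values of 1.52, 85.2 and 92.9; in muscle the means were 0, 1.89 and 2.87. The run at the start of Fat3 (chr9:16500501-16502500), an atypical giant cadherin, had T-cell means of 1.78, 58.7 and 67.4 and muscle means of 0.910, 0.210 and 2.71. Among the runs of 3 bins, that at Gpc6 (chr14:116925501-116927000), a heparan sulfate proteoglycan of the cell surface, reached 100 at 20 m and 96.5 at 28 m from 2.37, and that at Hs6st3, an enzyme that sulfates heparan sulfate, 52.3 and 74.9 from 2.03. The run over the start of Kit (chr5:75574501-75576000), the receptor of stem cell factor, had 1.02, 37.7 and 107, and that over Ptprg, a receptor tyrosine phosphatase, had 2.03, 35.3 and 101. In these genes the 28-m value was well over the 20-m value, whereas in Pcdh7, Fat3 and Gpc6 the values of both ages were close. The run at H60b, a ligand of an activating receptor of natural killer cells, had muscle means of 14.9, 9.26 and 14.2, while none of the other runs described was above 7.22 in a muscle column. The remaining runs of these were at Tmem229a, BC030500 and Irx6, an Iroquois homeobox gene.

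The highest single bins were all in islands. The highest mean of both older pools was at Pcdh10, another protocadherin (chr3:45380001-45380500, coding exon, 1603 bp from the nearest start), with 4 reads at 2 m (exact Poisson 95% interval 1.09 to 10.2 reads, which covers counting error only), 124 at 20 m (103 to 148) and 119 at 28 m (98.6 to 142). These are values of 4.06, 151 and 157, and muscle had 0, 2.53 and 12.7. A bin over the start of Plcb1, a phospholipase C that signals below G-protein-coupled receptors, followed with 2.03, 127 and 163, and in muscle with 0, 0 and 1.27. A bin by the start of Nrg1, the ligand neuregulin, had 0, 119 and 132 in T cells and 0, 1.68 and 4.46 in muscle. The other 7 belonged to Mdga2, Tafa5, Egfem1, Gpc6, P3h2 and Pcdh7 and to an intergenic island 76032 bp from the nearest start, that of Hmga2. All 10 were at 9.10 or less in 2-m muscle.

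The gaining bins touched 680 of 24963 annotated genes (2.72%), 386 of them within 1 kb of a start (1.55%). Tafa5, which encodes a secreted protein of the nervous system, had the most bins, with 6, of which 5 lay within 1 kb of 1 of its starts. The mean of its bins was 1.86, 51.7 and 100 in T cells and 2.58, 2.10 and 4.57 in muscle. Epha7, an ephrin receptor, had 5 bins over chr4:28812501-28816000, with T-cell values of 0 to 2.03 at 2 m, 30.4 to 76.7 at 20 m and 51.5 to 102 at 28 m. Of the 25 genes with most bins within 1 kb of a start (ties by all bins of the gene, then by their summed 28-m value), 24 had muscle means of at most 4.55 at 2 m and 7.65 at 28 m, and the exception was H60b. Their mean T-cell values at 28 m ran from 47.6 (Adgrb3) to 107 (Kit). Besides adhesion genes (Pcdh7, Fat3, Cadm1, Adgrb3) this group held receptors (Kit, Ptprg, Erbb4, Epha7), transcription factors (Irx6, Meox2, Bcl6, Fezf1) and the co-repressor Tle1.

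Developmental regulators were the list with the highest share of gaining genes among the lists with at least 20 members and separate bins. Of 290 homeobox, Sox, Fox, Pax, Tbx, Gata and related genes, 41 had a gaining bin (14.1%, beside 2.72% of all genes) and 25 had one within 1 kb of a start. Of the 233 with an island low in 2-m T cells at a start, 25 had an island bin that gained there (10.7%, beside 2.59% of 13012 such genes overall). In all, 62 bins belonged to these genes, 60 of them in islands. Sox17, which specifies endoderm and endothelium, had 3 bins with 1.02, 39.3 and 99.6, and Tlx3, a homeobox gene of sensory neurons, had 3 bins with 2.03, 43.8 and 56.4. Foxd3, a gene of pluripotency and neural crest, had 2.03 to 4.06 at 2 m in its 2 bins and means of 58.4 and 93.2 later. The Hox genes among the 41 were Hoxb5, Hoxc10, Hoxd10 and Hoxd11. Of 62 genes of Wnt, Bmp, Fgf and Hedgehog ligands, 4 had a gaining bin (6.45%): Bmp2 (2.54, 59.6 and 104), Fgf10, Fgf12 and Shh. Potassium channels had 6 of 91 genes (6.59%), among them Kcnj3, an inward rectifier, with 3.05, 56.0 and 131. The clustered protocadherins count 14 of 58 genes, but all 14 share 1 bin, at the start of Pcdhac2, with 0, 73.0 and 89.9.

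The other lists are to be read beside the 2.72% of all genes. Of 446 zinc finger genes 6 had a gaining bin (1.35%), although 332 of them had an island low at 2 m at a start. None of 1104 olfactory receptor, 349 vomeronasal receptor, 33 major histocompatibility complex, 30 imprinted, 26 killer lectin receptor, 9 muscle and 5 erythroid genes had one; in the last 5 of these lists, with 33 genes at most, that share of all genes comes to less than 1 gene. Ribosomal protein genes had 1 of 74 (Rpl11), microRNA genes 3 of 1090, and genes of DNA methylation and its readers 1 of 12 (Mbd2; 8.33%). Of the olfactory receptor genes 2, and of the vomeronasal receptor genes 0, had an island low in 2-m T cells at a start.

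Of the 15 T-cell genes 3 had a gaining bin (20%, beside 2.72% of all genes). Among them, Tcf7, a transcription factor of naive and memory T cells, had an island bin at 1.02, 42.6 and 30.4, and Cd247 an intronic bin at 4.06, 32.9 and 56.8. Icos, a co-stimulatory receptor, was the only gene of 29 on a list of naive and effector T-cell genes, with 4.06, 40.2 and 31.7. Of the genes of other blood cells, Pax5 (B cells; 1 of 9) and Cebpa (myeloid cells; 1 of 11) had a bin each. A further pair of genes, named after their values were seen, had 4 bins each. Ccnd3, cyclin D3 of the cell cycle, had 4 intronic non-island bins, with T-cell values of 0 to 4.06, 35.3 to 45.02 and 43.6 to 83.3. Cdkn2a, which encodes the cell cycle inhibitors p16 and p19, had 4 bins, with 0 to 4.06, 30.4 to 45.02 and 33.0 to 42.3, and muscle values between 0 and 9.56. The T-cell gene starts as a whole moved the same way in the older pools, as given above with the B-cell genes, and the part of cell make-up in the non-island bins was not tested.

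Short motifs of factors at work in T cells were counted in the 500-bp bins, on both strands, with any overlap allowed between motifs. The letters TGTGGT, the core bound by RUNX factors, occurred in 205 of 428 non-island bins (47.9%), in 100 of 573 island bins (17.5%) and in 31.4% of all autosomal bins. To compare bins of like CpG number, the 258 non-island gaining bins with 7 to 12 CpGs, the middle range, were set beside the 20432 other non-island bins low in 2-m T cells with as many CpGs. TGTGGT occurred in 53.1% of the former and 34.6% of the latter, and the E-box letters CAGCTG in 36.4% and 27.7%. For the ETS letters AGGAAGT the shares were 22.1% and 21.3%, for AGATAA, the letters of GATA-family factors, 24.0% and 23.2%, for TGANTCA (AP-1) 13.6% and 14.3%, and for CTTTGAT (TCF/LEF) 9.30% and 7.85%. In island gaining bins and other low island bins the shares were 17.5% and 17.6% for TGTGGT, 30.7% and 22.6% for CAGCTG, 6.81% and 9.25% for AGGAAGT, and 3.66% and 6.50% for TGANTCA. These are shares of bins holding the letters, not bound sites.

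The difference between ages in muscle varied with the starting level. From 2 m to 20 m the median difference on the log2(value + 1) scale was 0 in the gaining bins and 0 over all autosomal bins; 118 gaining bins (11.8%) were over 2-fold higher, beside 14.2% of all bins, and 134 (13.4%) over 2-fold lower, beside 9.63%. From 2 m to 28 m the median difference was 0.53 in gaining bins and 0.53 over all bins; 392 (39.2%) were over 2-fold higher and 98 (9.79%) over 2-fold lower, beside 36.1% and 7.77% of all bins. The classes went opposite ways, with a median of 1.19 in island bins and in the other low island bins (at the same sum, 1.47 and 1.35), and -0.39 in non-island bins, where the other low non-island bins had 1.34. A difference of 1.19 is that of a bin with 0 reads at 2 m and 2 reads at 28 m. In 2-m muscle, 42.9% of island gaining bins and 50.6% of the other low island bins had no read. The island median was 1.81 and 0.47 with pseudocounts of 0.25 and 5. When the muscle libraries were set to the same sum, the median over all bins moved by 0.39 to 0.92. The median of the gaining bins moved to 0.86 and that of the non-island gaining bins to 0.06. The direction of the non-island median thus depended on the scaling, while it stayed below the median of all bins. The flat profile of the 28-m muscle column went with the starting level: bins low at 2 m were higher and bins high at 2 m were lower. Among bins at 5 or less in 2-m muscle, the median difference was 1.51 in 474 island and 1.52 in 74 non-island gaining bins, beside 1.19 and 1.63 in all island and non-island bins of that level. Among non-island bins over 5 to 10, it was 0.65 in 41 gaining bins and 0.75 in all, with 21.95% and 33.04% over 2-fold higher. Over 10 to 30 it was -0.09 in 128 gaining bins and 0.09 in all, with 9.38% and 3.79% over 2-fold lower. Among bins over 30 to 60, it was -0.71 in 135 non-island gaining bins and -0.59 in all non-island bins of that level, and over 60 it was -1.04 in 50 and -1.06.

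**Figure D4:**
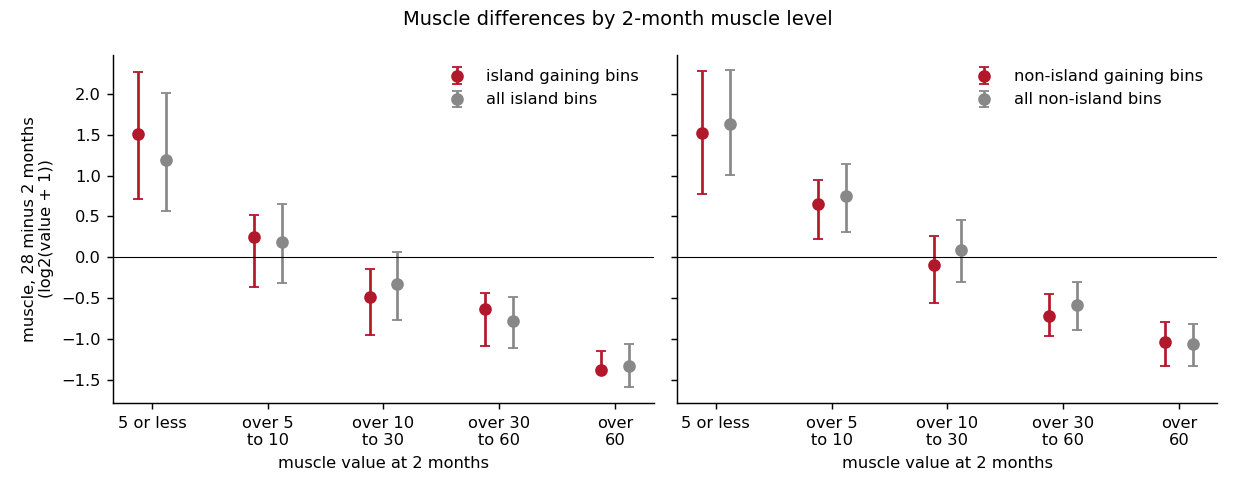
Median and quartiles of the difference between 28-m and 2-m muscle on the log2(value + 1) scale, by muscle value at 2 m, for gaining bins (red) and all autosomal bins of the class (grey), in islands (left) and outside (right). The medians of gaining bins went from 1.51 and 1.52 in the lowest class to -1.04 in the 50 non-island bins over 60; 5 island bins make up the last class on the left.

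Applied to the muscle columns, the same limits gave 22 autosomal bins, 1 in an island, and none was among the 1001, which make up 0.0209% of autosomal bins. Of the gaining bins with the largest positive difference in muscle, the highest was at Iqsec3 and was above the 28-m median of all autosomal bins (13.4). Iqsec3, a synaptic exchange factor, had a coding bin with 0, 0.842 and 17.2 in muscle and 3.05, 32.9 and 95.2 in T cells, and the homeobox gene Gbx2 had 0, 2.53 and 10.8 in muscle. Of the island bins, 290 (50.6%) stayed at 5 or less in all muscle columns, beside 66.7% of the other low island bins. The largest negative differences were mostly at bins with high values in 2-m muscle. The Scn8a bin, in an intron of a sodium channel gene, had 52.8, 45.5 and 7.65 in muscle and 2.03, 31.6 and 37.0 in T cells, and the bin in a coding exon of Rcor2, a co-repressor gene, had 59.1, 30.3 and 9.56 and 4.06, 41.4 and 42.3. In the intron of Runx1, a transcription factor of blood cells, muscle had 78.2, 51.4 and 20.4 and T cells 2.03, 48.7 and 47.6. Lmx1a and Stn1, of which the latter protects telomeres, held the other 2.

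Muscle RNA was the only RNA measured, so RNA levels could be compared in muscle and not in the T cells that chose the bins. Of the 680 genes, 645 had a row in the RNA table and 440 passed a mean of at least 10 normalised counts. At 20 m against 2 m, 101 of the 440 genes passed the test (limma, adjusted p under 0.05 over all genes), 61 higher and 40 lower, that is 23.0% beside 16.6% of all 13178 genes tested (9.42% higher and 7.13% lower). At 28 m against 2 m it was 83 genes (18.9%), 47 higher and 36 lower, beside 13.8% (7.53% higher and 6.24% lower). Among the 203 tested genes with an island bin within 1 kb of a start, 46 (22.7%) and 42 (20.7%) passed at the 2 ages. The comparisons share the 2-m libraries. With the libraries set to the same sum, 45 genes passed at 20 m (25 higher and 20 lower; 4.44% of all genes passed) and 27 at 28 m (19 higher and 8 lower; 4.198%). The counts at 20 m were 58 and 67 without replicate 1 or 2 of 20 m (8.19% and 9.55% of all genes), and those at 28 m were 53, 42 and 50 without replicate 1 of 2 m or replicate 1 or 3 of 28 m (8.54%, 7.29% and 8.17%). The median log2 difference of the 440 genes was 0.02 at 20 m and 0.03 at 28 m, and over all genes -0.02 and -0.01. The tissue label held in these libraries: the 9 muscle genes summed to between 3249483 and 4503690 normalised counts per library. T-cell genes summed to 400 to 744 at 2 m, 314 to 376 at 20 m and 393 to 461 at 28 m, and 10 of the 15 were under the mean of 10. Myeloid genes (10 with a row, 2 of them under that mean) summed to 2201, 3096 and 5976 in the 2-m libraries, 1886 to 1947 at 20 m and 2137 to 3050 at 28 m, so the 20-m libraries were below all 2-m libraries, and 1 library at 2 m stood above the rest. The part of this in the RNA differences was not tested.

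Genes with an island bin at the start and an altered RNA level were found in both directions. Lrrc38, an auxiliary subunit of a potassium channel, had an island bin over its coding start with 3.05, 57.2 and 92.5 in T cells and 0, 0.842 and 4.46 in muscle. Its RNA was 2028, 2141 and 2082 normalised counts in the 2-m libraries, 942, 953 and 944 at 20 m, and 1099, 1077 and 1040 at 28 m. The groups did not overlap, and the log2 differences were -1.14 ± 0.08 (SE, n = 3 libraries per age; limma adjusted p = 5.52e-06) and -0.96 ± 0.08 (adjusted p = 9.62e-06). Col4a1 and Col4a2, the chains of basement membrane collagen, share a start and 1 island bin (4.06, 34.1 and 80.6 in T cells; 0, 0 and 3.82 in muscle). Col4a1 fell by 0.77 ± 0.11 at 20 m and by 0.64 ± 0.11 at 28 m on the log2 scale, and Col4a2 fell by 0.72 ± 0.10 and 0.64 ± 0.10 (SE). P3h2, which hydroxylates prolines of such collagen, went the other way, from 86.3 to 137 at 2 m to 272 to 407 at 20 m and 262 to 459 at 28 m, a log2 difference of 1.65 ± 0.23 at 28 m (limma adjusted p = 0.00063). Slc24a2, a sodium-calcium-potassium exchanger, rose from 17.8 to 21.1 at 2 m to 69.1 to 113 at 20 m and 67.7 to 117 at 28 m, and Prkcz, an atypical protein kinase C, from 59.9 to 118 to 187 to 239 and 239 to 328. Adamts20, a secreted protease, was lower at both ages, by 1.51 ± 0.20 and by 0.83 ± 0.20 on the log2 scale. At all these start islands the muscle MBD-seq value was 10.8 or less at every age.

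Genes with non-island bins also changed in both directions. Runx1 RNA was 165, 127 and 96.0 in 2-m muscle, 284, 530 and 209 at 20 m and 1046, 863 and 706 at 28 m, so the 28-m libraries were above all others, with a log2 difference of 2.76 ± 0.29 (SE, n = 3 libraries per age; limma adjusted p = 9.5e-05) beside the muscle bin values of 78.2, 51.4 and 20.4 given above. Mdga1, a surface protein with immunoglobulin domains, had an intronic bin with 63.7, 50.5 and 33.8 in muscle, and its RNA went from 782, 920 and 1292 to 263, 327 and 312 at 20 m and 116, 251 and 276 at 28 m (log2 difference at 28 m -2.28 ± 0.28). The muscle bin values were thus lower at 28 m in both genes, while RNA rose in 1 and fell in the other. Ablim1, an actin-binding protein, rose by 1.75 ± 0.18 and 1.78 ± 0.18 on the log2 scale, from 1830 to 2536 at 2 m to 5327 to 8406 and 5577 to 8412. Ccnd3 fell by 1.12 ± 0.14 and by 1.15 ± 0.14. Gpd1, glycerol-3-phosphate dehydrogenase, and Slc41a3, of a family of magnesium carriers, fell at both ages, Ifngr2, a chain of the interferon gamma receptor, fell by 0.55 ± 0.07 at 28 m, and Ptpn14, a tyrosine phosphatase, rose by 0.95 ± 0.11. With the libraries set to the same sum, Gpd1 (log2 difference -0.58, limma adjusted p = 0.0949) and Ifngr2 (-0.51, limma adjusted p = 0.183) did not pass at 28 m, with differences close to those before (-0.62 and -0.55). Of the genes at the runs described, Ptprg was higher at both ages (log2 difference 0.46 ± 0.12 at 28 m, limma adjusted p = 0.0247), and Pcdh7, Fat3, Gpc6, Kit and Tmem229a did not pass the test at either age (adjusted p at 28 m from 0.0709 for Gpc6 to 0.932 for Pcdh7). Irx6, Hs6st3, H60b and BC030500 were under the mean of 10 and were not tested.

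**Figure D5:**
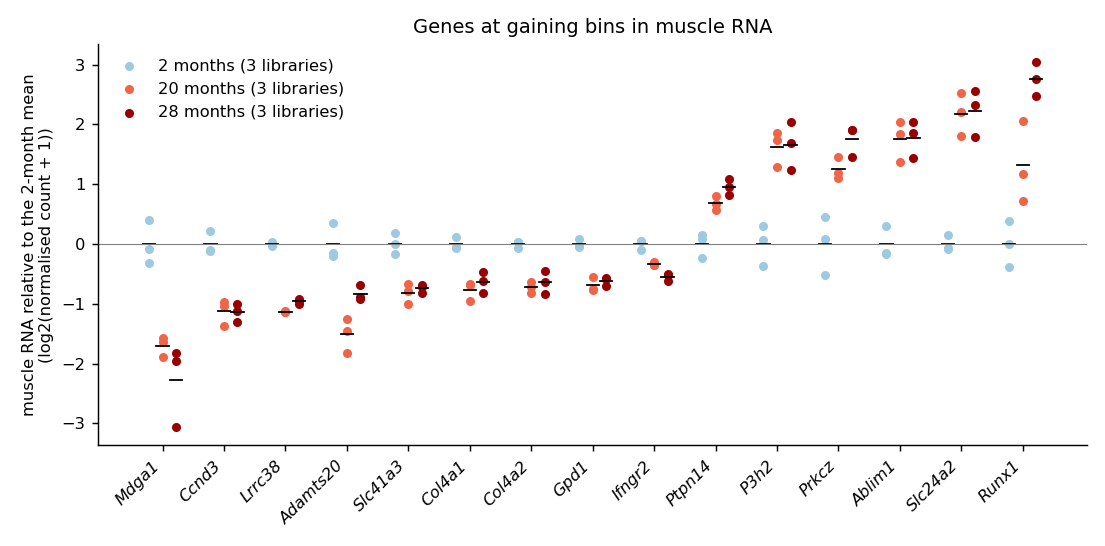
Muscle RNA of the genes at gaining bins with the smallest adjusted p at 20 m or 28 m (15 genes; up to 10 per comparison), as log2(normalised count + 1) minus the 2-m mean; each point is 1 library and each bar the mean of 3. Runx1 was highest at 28 m (mean 2.76) and Mdga1 lowest (mean -2.28).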

How the data were processed

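After trimming (Trim Galore) and alignment to mm10 (Bowtie2), the authors counted MBD-seq reads in 500-bp bins with bedtools and deposited these counts divided by DESeq2 size factors, a signal per bin; RNA reads were aligned (TopHat in the submitters' notes, Hisat2 in the study's methods), counted per RefSeq gene with HTSeq and deposited on the same kind of scale, also a signal here. All values were whole reads times 1 constant per library (100% within a relative tolerance of 1e-06 for MBD-seq and 1e-04 for RNA). The muscle MBD-seq columns do not say which of 2 captures per age they hold. RNA libraries held 20.2 to 71.1 M reads on genes, and the 5 summary rows, 37.9% to 47.7% of all reads, were left out.

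Gaining bins, islands, CpGs, distances to RefSeq starts (GRCm38.p6) and runs were computed in Python 3.11.15. RNA was tested with limma 3.58.1 (trend) on log2(value + 1), all 9 libraries, mean of at least 10, Benjamini-Hochberg over all genes; edgeR 4.0.16 and DESeq2 1.42.0 on recovered reads were alternatives. In simulated data (28 against 2 months, 13164 genes) limma recovered 71% of 100 genes changed 2-fold and 99% of 100 changed 4-fold, with 18 false calls. For 20 against 2 months (13178 genes) it was 76% and 96%, with 3 false calls. Every simulated gene had the same spread between libraries beyond counting error, so these rates describe that setting and not the libraries here. Genes were matched to RNA rows by symbol (610) or synonym (35).

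Genes and regions named are the 10 longest runs (ties by summed T-cell value), the 10 bins highest at 20 and 28 months, the 5 largest muscle rises and falls, the 25 genes with most bins within 1 kb of a start (ties by all bins of the gene), up to 10 genes per RNA comparison with the smallest adjusted p, and listed genes holding a bin; sequence windows were widened from 30 to 100 bases. Some genes that meet these rules are not reported here. The bins and lists were chosen with earlier results of these data known. Counting intervals are exact Poisson or Wilson and cover counting error only. They take reads, and bins, as independent of one another. The sums over bins exceed the average number of reads per age group that the study gives, so a read or its mate may be counted more than once.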

Additional observations from a re-analysis of the deposited data

How the results depend on the processing

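The limits decide how many bins gain. There were 298 bins with a limit of 2 at 2 m, and 2461 and 486 with limits of 20 and 40 at the older ages; with the T-cell libraries set to the same sum there were 814. Under the limits of 2, 20 and 40 the island share was 70.5%, 43.2% and 67.5%, and the share within 1 kb of a start 62.1%, 37.7% and 54.9%. With a stricter island the island share was 49.6%, and with any base in an island 68.0%. Within 2 kb of a start lay 55.3% of bins and 17.7% held a start; the median CpG number in 1000 bp was 40. The muscle difference at 28 m in island bins was 1.81 and 0.47 with pseudocounts of 0.25 and 5 and 1.47 at the same sum, and in non-island bins 0.062 at the same sum.

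In muscle RNA, libraries set to the same sum left 45 (20 m) and 27 (28 m) genes at gaining bins past the threshold, and a fold over 2 with an unadjusted p under 0.05 gave 36 and 34 (5.17% and 5.14% of all genes). Leaving out 1 library gave 58 to 105 genes at 20 m and 42 to 79 at 28 m. Over the same fits, 8.19% to 17.6% of all genes passed at 20 m and 7.29% to 14.6% at 28 m. The lowest counts at gaining bins came without the first 20-m library (58) and the first 28-m library (42), where the share of all genes was lowest too. The RNA replicate numbers were not taken to pair the libraries: same-numbered libraries correlated between -0.04 and 0.16 in their deviations from the age means, over 0.1 in every pair of replicate 3 (0.11 to 0.16) and in no pair of replicates 1 and 2, and not every library correlated best with its own number. With replicate number as a block, 126 and 98 genes passed (22.8% and 19.2% of all genes). The alternatives for named RNA results cover 20 results, those with the smallest adjusted p per comparison in these same libraries. Of their 360 alternative values 350 kept their side of the threshold, 10 lost it (8 under the fold rule, Gpd1 and Ifngr2 at 28 m at the same sum) and none changed sign. Results chosen by their small adjusted p tend to stay past the threshold, so these figures do not describe the other genes. With 1 pool per age the MBD-seq columns allow no estimate of spread between mice.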

Other observations

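The X chromosome lay outside the rule. Applied there, the same limits found 0 of 326033 bins, although 204498 X bins were at 5 or less in 2-m T cells and 24160 were at 30 or more in both older pools. On the autosomes 878228 bins were at 30 or more in both older pools.

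Most low bins that reached 30 in an older T-cell pool did so in 1 of them. A further 2709 autosomal bins were at 5 or less at 2 m and at 30 or more at 28 m but not at 20 m, of which 1862 were island bins, and 786 reached 30 at 20 m but not at 28 m, of which 181 were island bins. Mitochondrial bins had a median of 894, 577 and 5102 in muscle at 2, 20 and 28 m and of 23.3, 38.9 and 23.8 in T cells.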
